A study of Mus musculus with 20 samples.

Results

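The genes described here are 9 transcriptional response genes of the TGF-beta and BMP pathways: Id1, Id2, Id3, Smad6, Smad7, Bambi, Pmepa1, Skil and Tgfbi. They were chosen by name, with earlier results of these data known, as were the gene lists used below. All 9 had a row among the 29956 genes of the tables. RNA-seq of poly(A) transcripts followed them in melb-a cells, an established line of mouse melanoblasts, the precursors of pigment cells. Both hairpins shHIRA II and shHIRA I, aimed at the gene of the histone chaperone HIRA, were set against the control hairpins shScramble and shLuciferase, and all of these against parental cells that received no virus. Each of the 5 groups held 4 libraries, 20 in all, which the design text calls independent. The cells were labelled wt in every group and carried the hairpins on lentivirus, given for 16 h with 8 µg/ml polybrene and followed by selection with 1 µg/ml puromycin. Every group grew in medium with 10% serum, 10 ng/ml SCF and 40 pM Fgf2. No TGF-beta or BMP ligand and no inhibitor of either pathway was named in the protocols, so the values describe cells in ordinary growth medium. The parental cells lacked virus and hairpin together, and all groups were the same line.

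TGF-beta and BMP ligands bind pairs of serine/threonine kinase receptors, which phosphorylate receptor Smads. Smad2 and Smad3 carry the TGF-beta signal and Smad1, Smad5 and Smad9 the BMP signal, and each joins Smad4 and enters the nucleus. Among the genes switched on there are inhibitors of the same pathway: Smad6, Smad7, Bambi, Pmepa1 and Skil. The Id genes are classic BMP targets, and their products are known for holding many cell types, melanocytes among them, in an undifferentiated or proliferating state. Tgfbi encodes a secreted matrix protein first found as a TGF-beta-induced transcript.

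Start-site sequences of Smad6 and Tgfbi are shown because they hold the short motifs that Smad proteins are known to bind. GTCTAGAC is the palindrome selected by Smad3 and Smad4, and GGCGCC is a GC-rich motif of BMP-regulated promoters. Both read the same on either strand and do not overlap each other here. The sequences come from RefSeq, build GRCm38.p6, run 5′ to 3′ on the gene's strand, and have the motif in capitals. The Smad6 stretch (chr9:64022050-64022309, minus strand) ends 10 bases after the RefSeq start, and its palindrome begins 4 bases before that start.
Smad6: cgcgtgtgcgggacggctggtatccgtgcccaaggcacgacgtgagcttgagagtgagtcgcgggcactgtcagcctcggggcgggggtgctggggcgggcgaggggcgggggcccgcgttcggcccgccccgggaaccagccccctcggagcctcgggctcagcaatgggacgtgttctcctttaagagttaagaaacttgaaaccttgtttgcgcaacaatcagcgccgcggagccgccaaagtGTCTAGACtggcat
The Tgfbi stretch (chr13:56609336-56609522, plus strand) holds GGCGCC beginning 77 bases before the RefSeq start, which lies 63 bases inside the transcript annotated by GENCODE.
Tgfbi: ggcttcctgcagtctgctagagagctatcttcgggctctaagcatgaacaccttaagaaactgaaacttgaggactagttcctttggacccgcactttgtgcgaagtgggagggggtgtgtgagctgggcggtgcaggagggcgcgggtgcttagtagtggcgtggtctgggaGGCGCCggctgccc

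Start-site windows of 300 bases were examined for 4 of the 9 genes, Id2, Id3, Smad6 and Tgfbi. Windows of members on chromosome 18, which holds Bambi and Smad7, were left out beforehand. The palindrome stood in 57 of the 27025 mouse windows searched (0.211%) and GGCGCC in 3233 of them (12.0%). Id2 held 1 GGCGCC, which began 231 bases before its RefSeq start, and Id3 held neither motif. The Id2 and Id3 windows lie largely or wholly inside annotated transcripts of the same genes and are not printed. These matches are letters in a window, and binding was not measured.

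Library depth ran from 14952948 to 20669874 estimated counts, and 13541 genes, all 9 members among them, had enough counts for the test. Hira stood at 41.5, 35.1, 50.4 and 49.2 TPM (transcript abundance scaled to transcript length and library size) in the libraries labelled shHIRA II and at 32.9, 19.6, 22.1 and 22.9 TPM with shHIRA I. Its control values were 51.7, 36.1, 42.7 and 47.8 TPM with shScramble and 57.8, 46.6, 55.6 and 40.1 TPM with shLuciferase. All 4 shHIRA I libraries lay under the control libraries, while those labelled shHIRA II overlapped them. On the log2 scale Hira fell by 1.05 with shHIRA I (adjusted p = 5.15e-05, edgeR's quasi-likelihood test with Benjamini-Hochberg adjustment over all genes tested). In the libraries labelled shHIRA II its log2 difference was −0.19 (SE 0.14, adjusted p = 0.306). The fall was called once mitochondrial share entered the model (−0.46, adjusted p = 0.0394) and not when parental cells were the reference (−0.40, adjusted p = 0.0618). Hira was higher in the libraries labelled shHIRA II than with shHIRA I (0.86, adjusted p = 0.000960), so each hairpin is reported on its own and shHIRA II stands for libraries with that label. Of 9 melanoblast markers, 8 averaged at least 1 TPM over the 20 libraries, Ednrb being the exception. Their summed level was 661 to 1063 TPM in the libraries labelled shHIRA II, 973 to 2975 TPM with shHIRA I, 2464 to 4277 TPM over both control hairpins and 2540 to 3631 TPM in parental cells. Most of the sum came from Mlana and Tyrp1. Dct, Kit, Mitf, Mlana, Pmel and Tyrp1 each had a lower mean with either Hira hairpin than with either control hairpin. Pax3 did not, at 43.9 TPM with shHIRA II and 58.4 TPM with shHIRA I, against 43.4 TPM with shScramble and 56.4 TPM with shLuciferase. Sox10 averaged above 1 TPM only with shScramble (3.79 TPM) and in parental cells (2.85 TPM). Its libraries spread widely there, from 0.0644 to 7.21 TPM with shScramble and from 0.0630 to 11.2 TPM in parental cells. Mitochondrial transcripts averaged 4.19 ± 0.876% of counts with the label shHIRA II and 5.70 ± 3.44% with shHIRA I, against 8.23 ± 1.06% with shScramble and 7.98 ± 1.51% with shLuciferase (SD, n = 4 each). The lowest shares were 1.23% in shHIRA I replicate 3 and 2.88% in shHIRA II replicate 2. In a bulk library, fewer cells with a transcript and less transcript per cell cannot be told apart.

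Of the 9 genes 6 were called with shHIRA II and 3 with shHIRA I. In the libraries labelled shHIRA II, 5 were higher (Id1, Id3, Smad7, Bambi and Skil) and Tgfbi was lower, while 32.4% of all genes tested were called in that comparison (15.7% higher, 16.7% lower). With shHIRA I, Bambi was higher and Pmepa1 and Id2 were lower, while 19.7% of all genes were called (10.9% higher, 8.87% lower). Bambi was the sole member called with both hairpins, 7 were called with 1 of them, and Smad6 with neither. Of those 7, the test of one hairpin against the other called Pmepa1, Skil, Smad7 and Tgfbi, and not Id1, Id2 and Id3. The median log2 difference of the 9 was 0.90 under the label shHIRA II, against 0.02 over all genes tested, and 0.41 with shHIRA I, against 0.05. Both comparisons share the same 8 control libraries. The medians depended on the reference. Against parental cells the median of the 9 was 0.020 with shHIRA II (all genes −0.0065) and −0.55 with shHIRA I (all genes 0.034). With the mitochondrial share as a covariate and control hairpins as reference it was 0.63 with shHIRA II and 0.050 with shHIRA I. In a fit of only the groups compared, all 9 were called with shHIRA II (6 higher, 3 lower), Smad6 at 0.56 (adjusted p = 0.0325), Id2 at −0.64 (adjusted p = 0.00486) and Pmepa1 at −0.73 (adjusted p = 0.0418) being added. That fit also called more genes in general, 5142 of the 13049 it tested (2398 higher, 2744 lower). Here and below a call is an adjusted p under 0.05, and the reference is the mean of both control hairpin groups unless another is named.

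**Figure D1:**
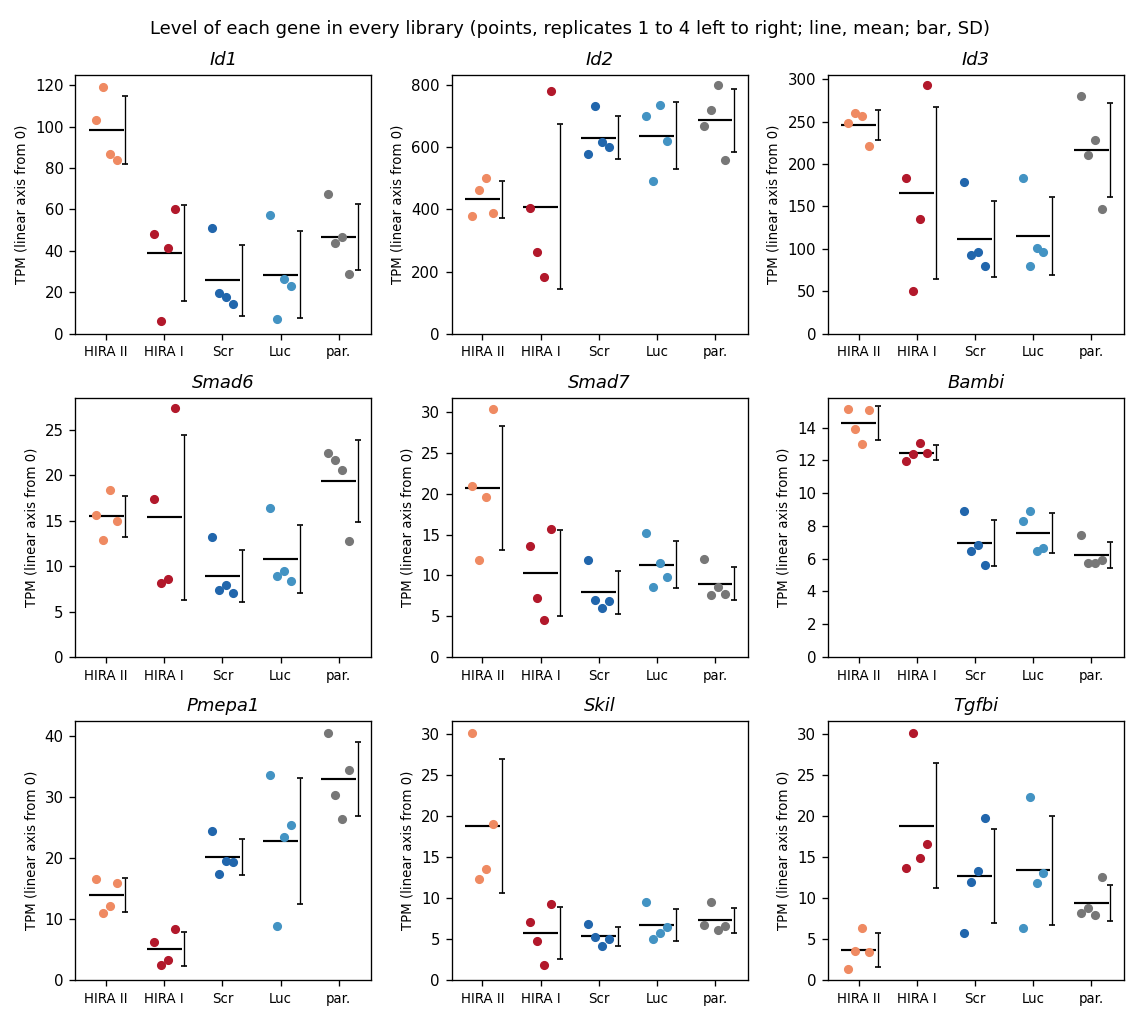
Level of each of the 9 genes in every library, in TPM on linear axes from 0, for the groups shHIRA II, shHIRA I, shScramble (Scr), shLuciferase (Luc) and parental (par.); points are libraries, lines group means and bars the SD of 4. Bambi lay between 12.0 and 15.1 TPM in the 8 shHIRA libraries and between 5.63 and 8.93 TPM in the 8 control hairpin libraries, whereas shHIRA I libraries of Id1, Id2 and Id3 spread over and beyond the control range.

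Bambi, on the plus strand of chromosome 18 in GRCm38, encodes a membrane pseudoreceptor without a kinase domain that blocks TGF-beta and BMP receptor complexes. It had 15.1, 13.9, 12.99 and 15.1 TPM in the libraries labelled shHIRA II and 12.0, 12.4, 13.1 and 12.5 TPM with shHIRA I. Control cells had 8.89, 6.47, 6.86 and 5.63 TPM with shScramble and 8.27, 8.93, 6.49 and 6.63 TPM with shLuciferase, and parental cells had 7.43, 5.76, 5.75 and 5.93 TPM. All 8 shHIRA libraries stood above all 12 others. Bambi was 1.87-fold higher with the label shHIRA II (log2 0.90, SE 0.15, adjusted p = 0.000150) and 1.62-fold higher with shHIRA I (log2 0.70, SE 0.15, adjusted p = 0.00229). Against parental cells the log2 differences were 1.04 (adjusted p = 0.000288) and 0.83 (adjusted p = 0.00316). Both calls held without any single library and under every other alternative run. Between shHIRA II and shHIRA I the difference was 0.21 (SE 0.17, adjusted p = 0.435). With the mitochondrial share as a covariate Bambi was still called, at 0.75 and 0.59. Its coefficient of variation was 7.22% in shHIRA II, close to the 7.12% of Id3, and 3.62% in shHIRA I, the lowest of the 9 in that group.

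Pmepa1 (chr2:173224458-173276533, minus strand) encodes a membrane protein that keeps receptor Smads from the TGF-beta receptor. It had 16.6, 10.9, 12.1 and 15.8 TPM in the libraries labelled shHIRA II and 6.28, 2.47, 3.28 and 8.34 TPM with shHIRA I. It had 24.3, 17.3, 19.5 and 19.4 TPM with shScramble and 33.5, 8.77, 23.4 and 25.4 TPM with shLuciferase, and 40.4, 30.4, 26.3 and 34.4 TPM in parental cells. All shHIRA I libraries stood below every library of the other groups, and those labelled shHIRA II stood below every control library except shLuciferase replicate 2. Pmepa1 was 4.54-fold lower with shHIRA I (log2 −2.18, SE 0.33, adjusted p = 0.000128), the largest change of a member with that hairpin, and was called without any single library. The difference with shHIRA II was −0.71 (SE 0.30, adjusted p = 0.0740), and it was called at −0.85 (adjusted p = 0.0135) without shLuciferase replicate 2. Against parental cells both hairpins were called lower, at −1.42 with shHIRA II (adjusted p = 0.00411) and −2.89 with shHIRA I (adjusted p = 4.16e-05). The hairpins themselves differed, with Pmepa1 2.77-fold higher in shHIRA II than in shHIRA I (log2 1.47, SE 0.34, adjusted p = 0.00524). With shHIRA I, Pmepa1 and Bambi, both of them inhibitors at the receptor, were thus called in opposite directions.

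Skil (chr3:31095058-31122577, plus strand) encodes SnoN, a nuclear co-repressor that binds Smads at their targets. It had 30.2, 12.3, 13.6 and 19.1 TPM in the libraries labelled shHIRA II and 7.08, 4.74, 1.85 and 9.28 TPM with shHIRA I. Levels were 6.89, 5.30, 4.17 and 5.00 TPM with shScramble, 9.51, 5.03, 5.78 and 6.53 TPM with shLuciferase, and 6.72, 9.59, 6.15 and 6.64 TPM in parental cells. All 4 libraries labelled shHIRA II stood above the 16 others, and the shHIRA I libraries overlapped their controls, with 1 below them all. Skil was 2.96-fold higher with the label shHIRA II (log2 1.56, SE 0.27, adjusted p = 0.000293) and was called without any single library. With shHIRA I its log2 difference was −0.22 (SE 0.29, adjusted p = 0.652). The difference between shHIRA II and shHIRA I was 3.44-fold (log2 1.78, SE 0.34, adjusted p = 0.00117).

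Smad7, on the plus strand of chromosome 18, encodes an inhibitory Smad that occupies TGF-beta and BMP receptors and brings ubiquitin ligases to them. It had 21.0, 11.9, 19.7 and 30.5 TPM in the libraries labelled shHIRA II and 13.7, 7.26, 4.48 and 15.7 TPM with shHIRA I. It had 11.9, 6.95, 5.999 and 6.92 TPM with shScramble, 15.2, 8.56, 11.6 and 9.85 TPM with shLuciferase, and 12.0, 7.64, 8.56 and 7.76 TPM in parental cells. With the label shHIRA II, 3 of 4 libraries stood above all control libraries, and replicate 2, the library of that group with the lowest mitochondrial share, lay inside their range. Smad7 was 2.04-fold higher there (log2 1.03, SE 0.26, adjusted p = 0.00530), and with shHIRA I its difference was −0.02 (SE 0.27, adjusted p = 0.967). Against shLuciferase alone the shHIRA II difference was 0.81 and was not called (adjusted p = 0.0621). Smad7 was 2.07-fold higher in shHIRA II than in shHIRA I (log2 1.05, SE 0.31, adjusted p = 0.0211). That call was lost without shHIRA I replicate 2 (0.89, adjusted p = 0.0737) and without shHIRA II replicate 4 (0.87, adjusted p = 0.0763), and in a fit of only these groups (1.05, adjusted p = 0.0924).

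Smad6 (chr9:63953076-64022059, minus strand), whose start-site sequence is given above, encodes the inhibitory Smad that acts mainly on BMP receptors. It had 15.6, 12.9, 18.4 and 15.0 TPM in the libraries labelled shHIRA II and 17.4, 8.11, 8.55 and 27.4 TPM with shHIRA I. It had 13.2, 7.38, 7.96 and 7.06 TPM with shScramble, 16.4, 8.88, 9.45 and 8.34 TPM with shLuciferase, and 22.5, 21.7, 20.6 and 12.8 TPM in parental cells. The libraries of either Hira hairpin overlapped the controls, among which replicate 1 of both hairpins stood well above the other 3 libraries of its group. The log2 difference was 0.58 (SE 0.27, adjusted p = 0.110) with shHIRA II and 0.53 (SE 0.27, adjusted p = 0.183) with shHIRA I. It was called with shHIRA II in a fit of only the groups compared, as given above, and at 0.71 without shLuciferase replicate 1 (adjusted p = 0.0460), and at 0.76 with shHIRA I without shHIRA I replicate 2 (adjusted p = 0.0414). Against parental cells the sign turned, to −0.51 and −0.55, neither of them called.

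The Id proteins carry a helix-loop-helix domain but no DNA-binding region and act by tying up E proteins such as Tcf3. Id1 (chr2:152736251-152737410, plus strand) had 103, 119, 86.9 and 83.7 TPM in the libraries labelled shHIRA II and 48.0, 6.07, 41.2 and 60.0 TPM with shHIRA I. It had 51.2, 19.5, 17.96 and 14.3 TPM with shScramble, 57.5, 7.22, 26.6 and 23.0 TPM with shLuciferase, and 67.5, 43.7, 46.5 and 28.8 TPM in parental cells. All 4 libraries labelled shHIRA II stood above all 16 others. The shHIRA I libraries overlapped their controls, and replicate 2 of shHIRA I and of shLuciferase were the lowest libraries for this gene. Id1 was 3.52-fold higher with the label shHIRA II (log2 1.82, SE 0.48, adjusted p = 0.00724), and its difference with shHIRA I was 0.46 (SE 0.49, adjusted p = 0.560). The difference between shHIRA II and shHIRA I, 1.35, was not called (SE 0.58, adjusted p = 0.108), so the hairpins were not shown to differ.

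Id3 (chr4:136143497-136145755, plus strand) had 248, 259.9, 257 and 221 TPM in the libraries labelled shHIRA II and 184, 51.0, 135 and 293 TPM with shHIRA I. It had 179, 92.7, 96.0 and 80.0 TPM with shScramble, 183, 79.9, 101 and 95.9 TPM with shLuciferase, and 280.1, 211, 228 and 147 TPM in parental cells. The libraries labelled shHIRA II stood above all 8 control hairpin libraries and inside the parental range, and shHIRA I libraries lay on both sides of the controls. Id3 was 2.08-fold higher with the label shHIRA II (log2 1.06, SE 0.33, adjusted p = 0.0178), a call lost without shHIRA II replicate 2 (0.94, adjusted p = 0.0643). Neither control hairpin alone gave the call. With shHIRA I its difference was 0.46 (SE 0.33, adjusted p = 0.359), and 0.77 (adjusted p = 0.0469) without shHIRA I replicate 2.

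The calls of Id1 and Id3 depended on the reference. Against parental cells, Id1 differed by 0.92 with shHIRA II (SE 0.58, adjusted p = 0.245) and Id3 by 0.02 (SE 0.39, adjusted p = 0.976). The mean of the control hairpins was itself lower than parental cells, by −0.90 for Id1 (adjusted p = 0.364) and −1.04 for Id3 (adjusted p = 0.0894), neither of them called by edgeR over all 20 libraries. Id3 was called there by DESeq2 (−1.03, adjusted p = 0.0391) and in an edgeR fit of only the groups compared (−1.04, adjusted p = 0.0278). The mitochondrial share was lower in the shHIRA groups, as given above. With that share as a covariate the shHIRA II differences were 0.85 for Id1 (adjusted p = 0.410) and 0.63 for Id3 (adjusted p = 0.377), while Bambi, Skil, Smad7 and Tgfbi were still called. The slope of Id1 on the mitochondrial share was −0.25 log2 units per percentage point (adjusted p = 0.155), and no member's slope was called. The part of the mitochondrial share in the Id1 and Id3 results was not tested.

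Id2 (chr12:25093799-25097140, minus strand), the most abundant of the 9 and known as a BMP and Myc target, went the other way. It had 378, 461, 502 and 387 TPM in the libraries labelled shHIRA II and 404, 263, 184 and 782 TPM with shHIRA I. It had 577, 733, 615 and 599 TPM with shScramble, 699, 492, 735 and 620.2 TPM with shLuciferase, and 669, 719, 800.0 and 558 TPM in parental cells. With either hairpin 3 of 4 libraries stood below all controls, while shHIRA II replicate 3 lay inside their range and shHIRA I replicate 4 above it. Id2 was 1.71-fold lower with shHIRA I (log2 −0.78, SE 0.26, adjusted p = 0.0411), but of 12 libraries taken out singly 9 ended the call. Those were replicates 1, 2 and 3 of shHIRA I, 2, 3 and 4 of shScramble and 1, 3 and 4 of shLuciferase (adjusted p up to 0.119), and without shHIRA I replicate 4 the difference was −1.29. With shHIRA II the difference was −0.63 (SE 0.26, adjusted p = 0.0687). Against parental cells both hairpins were called lower, at −0.83 with shHIRA II (adjusted p = 0.0383) and −0.98 with shHIRA I (adjusted p = 0.0264).

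TPM is a level per transcript length, so the Id genes can be set side by side. Id4, the remaining member of that family, is included for this share. Their summed level was 779 ± 78.5 TPM in the libraries labelled shHIRA II and 618 ± 375 TPM with shHIRA I, against 774 ± 68.8 TPM with shScramble, 785 ± 156 TPM with shLuciferase and 956 ± 150.0 TPM in parental cells (SD, n = 4 each). Within that sum Id2 held 55.4 ± 3.11% in shHIRA II, 65.6 ± 12.2% in shHIRA I, 81.6 ± 6.99% in shScramble, 81.5 ± 4.95% in shLuciferase and 72.1 ± 4.51% in parental cells. Id1 held 12.6 ± 1.86%, 6.49 ± 3.97%, 3.28 ± 2.04%, 3.37 ± 2.01% and 4.82 ± 1.21% in the same order of groups. The sum in the libraries labelled shHIRA II was thus inside the range of the control hairpins while its make-up held more Id1 and Id3 and less Id2. These shares follow from the levels above and were not tested.

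**Figure D2:**
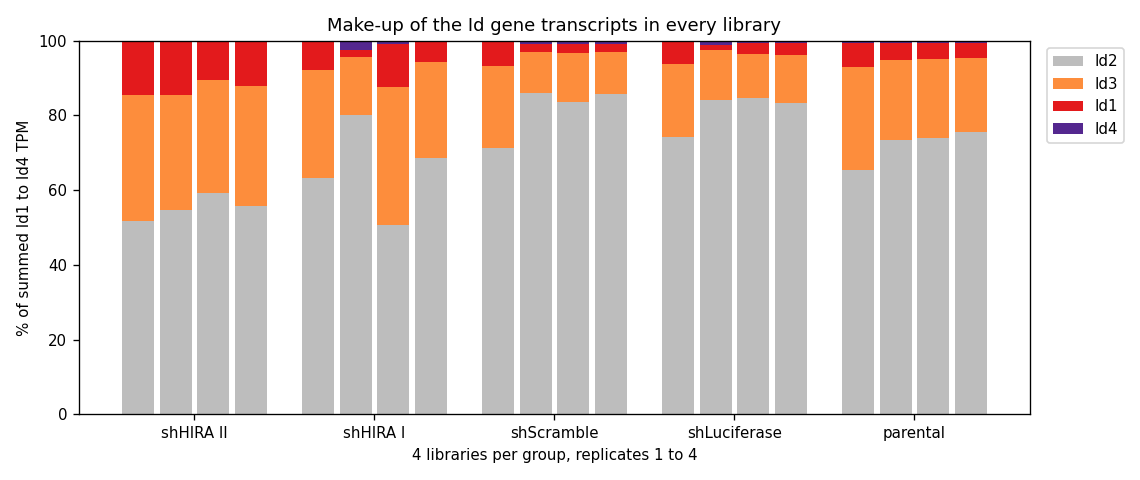
Share of Id1, Id2, Id3 and Id4 in the summed TPM of the Id genes, in percent, for each of the 4 libraries of the groups shHIRA II, shHIRA I, shScramble, shLuciferase and parental. Id2 made up 51.7 to 59.2% in shHIRA II libraries and 50.6 to 80.0% in shHIRA I libraries, against 71.3 to 86.0% in shScramble and 74.2 to 84.7% in shLuciferase libraries.

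Tgfbi (chr13:56609523-56639562, plus strand), which encodes a secreted adhesion protein of the extracellular matrix, was lower with shHIRA II than with either control or shHIRA I. It had 1.37, 3.53, 6.39 and 3.39 TPM in the libraries labelled shHIRA II and 13.6, 30.1, 14.8 and 16.6 TPM with shHIRA I. It had 5.78, 11.9, 13.3 and 19.7 TPM with shScramble, 6.32, 22.3, 11.8 and 13.01 TPM with shLuciferase, and 8.19, 8.73, 7.92 and 12.6 TPM in parental cells. The shHIRA II libraries stood below all others except for replicate 3, which at 6.39 TPM was above replicate 1 of both control hairpins. Tgfbi was 3.78-fold lower with the label shHIRA II (log2 −1.92, SE 0.39, adjusted p = 0.00113), called without any single library, and its difference with shHIRA I was 0.41 (SE 0.35, adjusted p = 0.449). Between shHIRA II and shHIRA I it was 5.01-fold lower (log2 −2.33, SE 0.43, adjusted p = 0.00101), the largest hairpin difference among the 9. The sum of 6 fibroblast markers also differed between the groups. It was 5.14 to 11.03 TPM in shHIRA II libraries and 50.1 to 110.1 TPM in shHIRA I libraries, against 20.4 to 39.9 TPM over both control hairpins and 18.8 to 33.3 TPM in parental cells. Of the 6 markers 4 averaged at least 1 TPM, most of the sum coming from Dcn and Col1a2, while Thy1 was at 0 in every group except shHIRA II, where it reached at most 0.143 TPM. With shHIRA I the higher sum came from Dcn, Col1a2 and Col1a1, while Lum averaged 0.981 TPM there, against 1.54 TPM with shScramble and 1.53 TPM with shLuciferase. The part of these markers in the Tgfbi result was not tested.

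**Figure D3:**
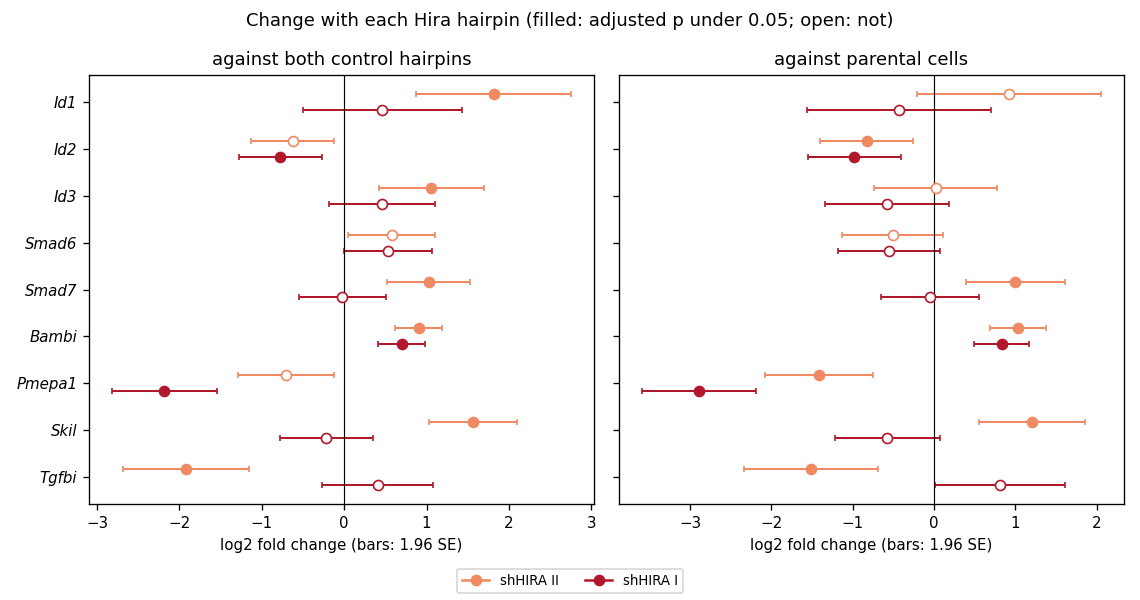
Log2 fold change of each of the 9 genes with shHIRA II (upper mark) and shHIRA I (lower mark), against both control hairpins on the left and against parental cells on the right; bars are approximate 95% intervals and filled marks are called. Bambi, Id2 and Pmepa1 keep their side of 0 for both hairpins and both references. All genes but Bambi and Tgfbi shift left when parental cells are the reference. Smad6 with both hairpins and Id1 and Id3 with shHIRA I then cross 0.

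The test of one hairpin against the other called 4 of the 9 genes, while 21% of all genes tested were called (8.6% higher, 12.4% lower). Over all genes that was 2845 calls, and 4430 without shHIRA I replicate 3. Pmepa1, Skil and Smad7 were higher in shHIRA II than in shHIRA I and Tgfbi was lower. For the 5 not called, the approximate 95% interval of the log2 difference before adjustment was 0.21 to 2.50 for Id1, −0.16 to 1.36 for Id3, −0.42 to 0.72 for Id2, −0.58 to 0.67 for Smad6 and −0.13 to 0.55 for Bambi. It rests on the normal distribution and is somewhat too narrow with 4 libraries a group. A 2-fold difference lay inside the approximate interval of Id1 and Id3 and outside that of Id2, Smad6 and Bambi. In TPM, all 4 shHIRA II libraries stood apart from all 8 controls for Id1, Id3, Bambi and Skil, which 22.2% of genes tested did (13% above, 9.14% below). With shHIRA I, Bambi and Pmepa1 did so, against 8.46% of genes (5.84% above, 2.61% below). Against the 4 parental libraries, Id1, Bambi and Skil stood above with shHIRA II and Id2, Pmepa1 and Tgfbi below, where 22.6% of genes stood above and 11.8% below. Bambi and Tgfbi stood above them with shHIRA I and Pmepa1 below, where 13.6% and 3.83% of genes did. Against parental cells 6 members were called with shHIRA II, where 29.3% of genes tested were called (14.4% higher, 14.9% lower), and 3 with shHIRA I, where 16.8% were (9.95% higher, 6.82% lower). Bambi, Skil and Smad7 were higher and Id2, Pmepa1 and Tgfbi lower with shHIRA II, and Bambi was higher and Id2 and Pmepa1 lower with shHIRA I. The parental reference is again shared by both.

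Control hairpins were set against parental cells to see how transduced cells without a Hira hairpin differ. Virus, a control hairpin and selection cannot be told apart in this comparison. By edgeR over all 20 libraries Smad6 alone was called, at −1.09 (SE 0.27, adjusted p = 0.0283), where 3.62% of all genes tested were called (2.05% higher, 1.57% lower). That call was lost when any 1 of 8 libraries was left out, which were replicates 2, 3 and 4 of shScramble, 3 and 4 of shLuciferase and 1, 2 and 3 of parental cells (adjusted p up to 0.106), and with limma on TPM. DESeq2 and the edgeR fit of only the groups compared called Smad6 and Id3. The difference for Id3 was −1.04 and for Pmepa1 −0.71 (adjusted p = 0.0894 and 0.193), and 7 of the 9 differences were below 0. Between shScramble and shLuciferase edgeR called none of the 9, none had an unadjusted p under 0.05, and DESeq2 also called none. Over all genes that comparison gave 0 calls with edgeR, 170 at an unadjusted p under 0.05 and 4 with DESeq2. The largest member difference there was −0.43 for Smad7.

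Levels also varied between libraries of the same group, and some members peaked in the same library. In all 5 groups the library with the highest Id1 was also the one with the highest Id3, and the library with the lowest Id1 had the lowest Id3. The Id1 peak library was also that of Smad6, of Smad7 and of Pmepa1 in 4 of 5 groups each. Their lowest library matched that of Id1 in 3, 1 and 2 of 5 groups. Each of them was also lowest in the Id1 peak library of 1 group. For Skil, Bambi and Id2 the peak library matched in 3, 2 and 1 groups and the lowest in 1, 1 and 2. Such matches were not counted over all genes. Tgfbi was highest in the library where Id1 was lowest in 4 of 5 groups, and lowest in the Id1 peak library in 2 of 5. With shHIRA I, Id1 spread 9.89-fold between its lowest and highest library, Id3 5.75-fold, Skil 5.02-fold and Bambi 1.09-fold. In the libraries labelled shHIRA II the same spreads were 1.43-fold, 1.18-fold, 2.46-fold and 1.16-fold. These libraries were few, no count of this kind was tested, and nothing in the labels names a day or batch that would tie them.

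**Figure D4:**
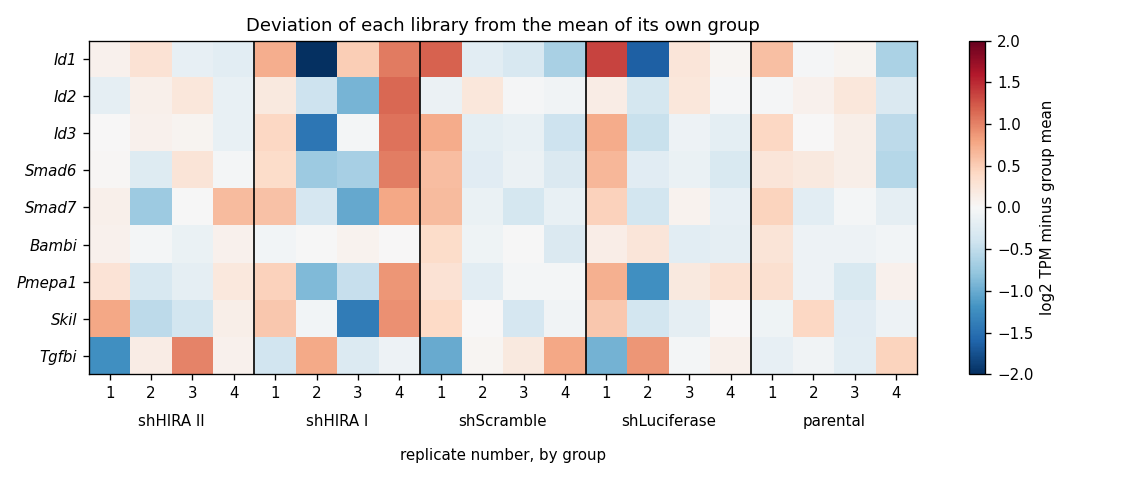
Deviation of each library from the mean of its own group, as log2 TPM minus the group mean, for the 9 genes (rows) in 20 libraries (columns, replicates 1 to 4 of shHIRA II, shHIRA I, shScramble, shLuciferase and parental). Id1 and Id3 peak and dip in the same library of every group, Tgfbi often takes the opposite sign, and Bambi stays near 0 throughout.

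The other genes of the pathways were listed by role, 85 in all, of which 63 could be tested. In the libraries labelled shHIRA II, 17 were higher and 13 lower, and with shHIRA I 21 were higher and 3 lower, beside the shares of all genes given above. Their median log2 difference was 0.19 and 0.33. Of 18 ligands 6 were tested, and the 12 others were under the filter on low counts. Bmp8b was the single listed BMP gene tested, and it was not called (1.10 with shHIRA II, adjusted p = 0.155, and 0.42 with shHIRA I, adjusted p = 0.684). Tgfb1 was the single ligand higher with shHIRA I (0.65, adjusted p = 0.00779), at 6.48 ± 0.909 TPM, against 3.70 ± 0.758 TPM with shScramble and 3.99 ± 0.401 TPM with shLuciferase. Gdf15 was the single one with shHIRA II, a call lost without any 1 of 8 libraries (replicates 2 and 3 of shHIRA II and 2, 3 and 4 of each control hairpin). Against parental cells the difference of Tgfb1 was 0.31 and was not called (adjusted p = 0.292).

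Among 11 receptors tested, 3 fell in the libraries labelled shHIRA II and Eng, a co-receptor, rose. Tgfbr2, the type II TGF-beta receptor, was at 27.7 ± 9.46 TPM in shHIRA II, against 75.1 ± 14.7 TPM in shScramble and 76.7 ± 8.16 TPM in shLuciferase (log2 −1.55, adjusted p = 1.31e-05). The co-receptor Tgfbr3 (−1.57, adjusted p = 0.000404) and the activin receptor Acvr1b (−0.88, adjusted p = 0.000226) fell as well. With shHIRA I, Tgfbr1 was the single receptor called, higher, and the call was lost without shHIRA I replicate 1 or 4. All 6 signalling Smads were tested, and with each hairpin Smad1 and Smad4 were called higher and Smad3 and Smad5 lower. Smad3 was at 14.8 ± 5.83 TPM in shHIRA II and 25.1 ± 8.60 TPM in shHIRA I, against 32.6 ± 8.35 TPM in shScramble and 37.4 ± 5.48 TPM in shLuciferase. Its fall was −1.35 with shHIRA II (adjusted p = 0.000106) and −0.61 with shHIRA I (adjusted p = 0.0388, lost without any 1 of 8 libraries, replicates 1, 3 and 4 of shHIRA I, 3 and 4 of shScramble and 1, 2 and 3 of shLuciferase). Smad5 differed by −0.99 with shHIRA II (adjusted p = 0.000839) and by −0.999 with shHIRA I (adjusted p = 0.00129). Smad1 rose by 0.70 with shHIRA II (adjusted p = 0.000179) and by 0.40 with shHIRA I, where the call was lost without shHIRA I replicate 4 (0.31, adjusted p = 0.0982).

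Among secreted inhibitors and binding proteins, Nog and Ltbp2 were called higher with both hairpins and Dcn in opposite directions. Of 11 tested, 3 rose and 3 fell in the libraries labelled shHIRA II, and 4 rose with shHIRA I. The BMP antagonist Nog was scarce throughout, with 0.862 ± 0.159 TPM in shHIRA II and 0.649 ± 0.144 TPM in shHIRA I, against 0.168 ± 0.136 TPM in shScramble and 0.204 ± 0.201 TPM in shLuciferase. It rose by 2.13 with shHIRA II (adjusted p = 0.00684) and by 1.71 with shHIRA I (adjusted p = 0.0401), and the call with shHIRA I was lost without any 1 of 8 libraries, which were replicates 1, 3 and 4 of shHIRA I, 2, 3 and 4 of shScramble and 2 and 3 of shLuciferase. Ltbp2, a relative of the latent TGF-beta binding proteins, rose by 1.18 with shHIRA II (adjusted p = 0.0378) and by 1.82 with shHIRA I (adjusted p = 0.00413). Its call with shHIRA II was lost without any 1 of replicates 1, 3 and 4 of shHIRA II, 1, 2 and 3 of shScramble and 2 and 3 of shLuciferase. Dcn, a proteoglycan that binds TGF-beta, fell by 2.47 with shHIRA II (adjusted p = 2.13e-05) and rose by 1.34 with shHIRA I (adjusted p = 0.00142). Ltbp4, a latent TGF-beta binding protein, rose by 1.83 with shHIRA I (adjusted p = 2.34e-05), and the activin antagonist Fstl3 fell by 1.73 with shHIRA II (adjusted p = 0.00180). Against parental cells Nog with shHIRA II (1.44, adjusted p = 0.110) and with shHIRA I (1.015, adjusted p = 0.331) and Ltbp4 with shHIRA I (0.66, adjusted p = 0.111) were not called. Inside the cell 11 regulators were tested, of which 2 rose and 3 fell with shHIRA II and 3 rose with shHIRA I. The co-repressor Ski, the relative of Skil, rose with shHIRA I (1.18, adjusted p = 5.31e-05), at 65.2 ± 19.6 TPM, against 24.2 ± 5.56 TPM in shScramble and 28.5 ± 7.33 TPM in shLuciferase. Tgif1, another co-repressor, rose with shHIRA II (0.83, adjusted p = 0.000737), and the Smad anchor Zfyve9 fell there (−0.97, adjusted p = 0.000775).

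Among further target genes more rose than fell. Of 11 other TGF-beta targets tested, 5 rose and 1 fell in the libraries labelled shHIRA II, and 7 rose and 1 fell with shHIRA I. Ctgf was at 14.8 ± 3.65 TPM in shHIRA II and 9.42 ± 3.42 TPM in shHIRA I, against 1.48 ± 1.22 TPM in shScramble and 2.01 ± 1.18 TPM in shLuciferase. Its log2 differences were 3.02 (adjusted p = 8.93e-06) and 2.34 (adjusted p = 0.000146), and YAP is also known to drive this gene. Junb, a component of the AP-1 transcription factor, rose by 1.73 with shHIRA II (adjusted p = 3.42e-05), and Col1a1, a fibrillar collagen chain, by 3.65 with shHIRA I (adjusted p = 0.000201). Spsb1 was the 1 that fell with each hairpin. Of 4 other BMP targets tested, 3 rose and Id4 fell with shHIRA II, and 2 rose with shHIRA I. Msx1 was at 0.365 ± 0.129 TPM in shHIRA II and 0.398 ± 0.129 TPM in shHIRA I, against 0.0651 ± 0.0608 TPM in shScramble and 0.0763 ± 0.0133 TPM in shLuciferase (log2 2.22 and 2.30, adjusted p = 0.00394 and 0.00470). Hey1, which Notch also drives, rose by 2.86 with shHIRA II (adjusted p = 0.000365). Of the 3 E proteins that Id proteins bind, Tcf3 alone was called, with shHIRA I (0.41, adjusted p = 0.0219), and not without shHIRA I replicate 3 (0.29, adjusted p = 0.0872).

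**Figure D5:**
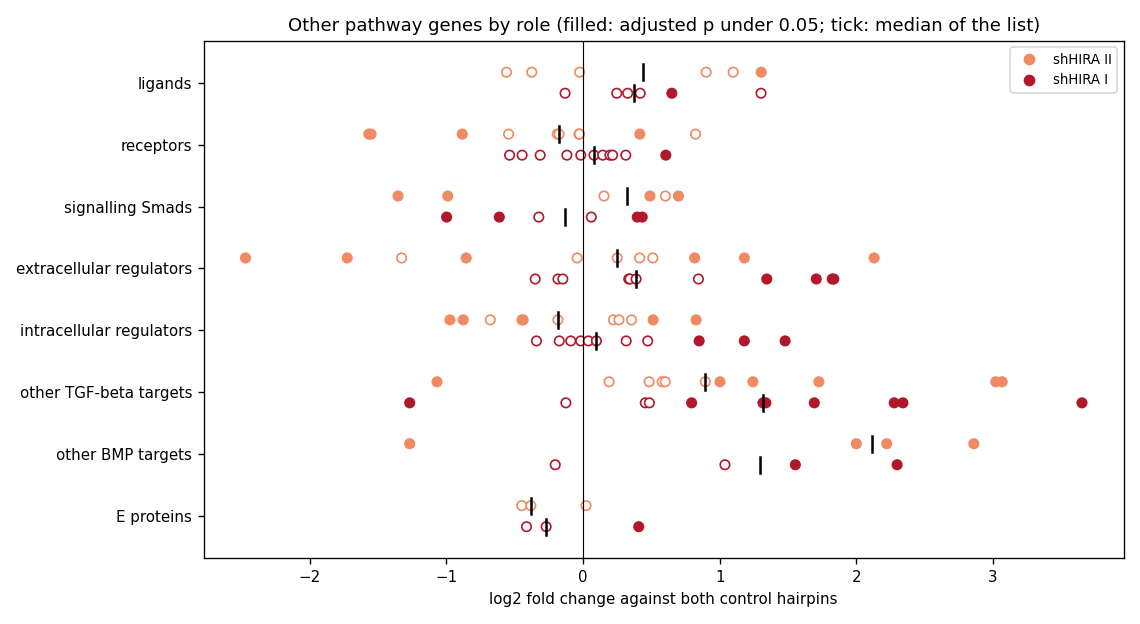
Log2 fold change of the 63 other pathway genes tested, by role, with shHIRA II (upper row of each role) and shHIRA I (lower row); filled points are called and ticks are list medians. Both hairpins have called points on either side of 0 among the signalling Smads, and the 3 receptors called lower are those of shHIRA II.

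For each member called with a Hira hairpin, the other tested genes nearest in pattern were found by the root mean square (RMS) difference of log2 CPM (counts scaled to library size) over the 20 libraries, each gene centred on its own mean. The nearest to Id1 were Tnnt2 (RMS difference 0.51) and Id3 (0.55), with Id1 itself spreading by 1.17 around its mean. Bambi was followed most closely by Chpf (0.19) and Plxnb2 (0.20), and its own spread was 0.47. Skil was nearest to Traf3 (0.35) and Fzd3 (0.39). Tgfbi was nearest to Sparcl1 (0.37) and Adcy2 (0.39). Pmepa1 was nearest to Emp1 (0.48) and Cytl1 (0.60). The nearest genes of Id2 were Tram1 and 1190007I07Rik (both 0.29), of Id3 Rrm2 (0.33) and Dctpp1 (0.34), and of Smad7 Megf10 and Ptpn9 (both 0.30). No member apart from Id3 was among the nearest genes of another. These distances describe the 20 libraries, which share scaling and depth. The nearest genes were picked on these same libraries, so their changes with a hairpin follow from that choice.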

How the data were processed

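The 9 genes and all gene lists were chosen with earlier results of these data known. The submitters' processing notes list bcl2fastq, kallisto, edgeR and mm10. Versions, annotation and strandedness are not stated there. The deposited TPM values, scaled by the authors per library, were used for levels and for limma. The authors' estimated counts per gene, as deposited, were rounded to whole numbers for count tests. Columns named as control with no hairpin were taken as parental, and shHIRA columns without a numeral as shHIRA I, each the sole group left over. Of 29956 gene rows, 6990 were 0 throughout and 27 had spreadsheet dates as names.

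The test was edgeR's (4.0.16, R 4.3.3) quasi-likelihood F test with TMM scaling and its default filter by group, in 1 group-means model over 20 libraries, with Benjamini-Hochberg adjustment over 13541 genes. Alternatives used limma 3.58.1 on log2(TPM + 1) or log2(TPM + 0.1), DESeq2 1.42.0, other references, scalings and filters, a mitochondrial covariate, a replicate block, and libraries left out. The procedure was tested on simulated counts. Named genes were the 9, Hira, up to 3 called genes per role list and hairpin with the largest change, and for each called member the 2 nearest in pattern. Not every gene named by the rule is reported here. Bmp8b, Eng, Spsb1 and Id4 fell outside this rule and were named after their values were seen. Positions are GENCODE's for GRCm38 (mm10), and no other annotated gene overlaps a member. Hira shares exons with Gm28539, so its counts could be split between them. Gm28539 averaged 64.1 estimated counts over the 20 libraries, against group means from 658 (shHIRA I) to 1616 (parental) for Hira. Transcripts of Id2, Bambi and Tgfbi shared 1.60%, 0.476% and 1.06% of their 31-base words with other genes, and those of the other members none. Precision is bounded by depth and by having 4 libraries per group, and p-values measure the spread between these libraries.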

Additional observations from a re-analysis of the deposited data

Results flagged for a closer look

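In 7 of 45 sets of 4 libraries 1 library stood far from the other 3. The cut-off used gives about 1 in 20 by chance for independent, normally distributed values. These sets reuse the same 20 libraries, several members vary together and TPM was not put on a log scale. The 7 therefore cannot be set against that rate. All 7 were the highest library of their group. The gap to the nearest library, as a share of the group's whole range, was 0.860 for Id1, 0.837 for Id3, 0.853 for Smad6 and 0.838 for Smad7 with shScramble, each time in replicate 1. It was 0.862 for Smad6 in shLuciferase replicate 1, 0.898 for Bambi in parental replicate 1 and 0.833 for Skil in parental replicate 2.

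The hairpins differed by the test of shHIRA II minus shHIRA I (edgeR's quasi-likelihood test, adjusted p under 0.05) for 4 of the 9 genes, with log2 differences of 1.47 for Pmepa1, 1.78 for Skil, 1.05 for Smad7 and −2.33 for Tgfbi. Among ligands and receptors the differences were −0.67 for Tgfb1, −0.79 for Tgfbr1, −1.43 for Tgfbr2, −1.25 for Tgfbr3 and −0.96 for Acvr1b. Dcn differed by −3.82, Fstl3 by −1.58, Ltbp4 by −1.59 and Smad3 by −0.74. Inside the cell Ski differed by −0.92, Ppm1a by −1.30, Usp15 by −1.35 and Zfyve9 by −0.63. Among further targets Col1a1 differed by −3.07, Junb by 1.24 and Hey1 by 1.82.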

How the results depend on the processing

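Counts of the 9 genes moved as follows. With shHIRA II, those called higher numbered 3 against parental cells, against shLuciferase alone and with the mitochondrial covariate, and those called lower 3 against parental cells and in a fit of only the groups compared, and 2 with the replicate block or without shHIRA I replicate 3 and shHIRA II replicate 2 together. With shHIRA I, 1 was called lower against shLuciferase or shScramble alone, in a fit of only the groups compared, with the replicate block, with the mitochondrial covariate and without those libraries. Between control hairpins and parental cells 2 were lower in a fit of only the groups compared and with DESeq2, and 0 with limma on TPM at either pseudocount. Leaving out single libraries gave 1 to 2 lower with shHIRA II, 1 to 3 higher (3 without shHIRA I replicate 2) and 1 to 2 lower with shHIRA I, and 0 to 1 lower for control hairpins minus parental. The cause was not tested.

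Over all genes, calls numbered 2767 for shHIRA II with the covariate and 1619 for shHIRA I against shLuciferase alone. Fits of only the groups compared gave 1777 for shHIRA I, 1088 for shHIRA II minus shHIRA I, 880 for control hairpins minus parental and 1 for shScramble minus shLuciferase. DESeq2 gave 4 for the last and 868 for control hairpins minus parental, which had 798 with the covariate, 844 without the libraries named above and 316 with limma on log2(TPM + 1). Leaving out single libraries gave 1997 to 4430 for shHIRA II minus shHIRA I (4430 without shHIRA I replicate 3) and 214 to 612 for control hairpins minus parental (320 or fewer without any 1 parental library, shScramble replicate 2 or 3 or shLuciferase replicate 3 or 4).

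No value that changed sign was a call. With shHIRA I, Id1 was −0.44 against parental cells and −0.25 with the covariate, and Id3 −0.58 and Smad6 −0.55 against parental cells. Smad7 was 0.19 against shScramble alone, 0.050 with the covariate, 0.17 without those libraries and 0.0040 with limma on log2(TPM + 1), and −0.30 to 0.16 without single libraries. Skil was 0.035 without those libraries and −0.56 to 0.028 without single ones. With shHIRA II, Smad6 was −0.51 against parental cells. Between the hairpins Id2 was −0.16 and Smad6 −0.083 without those libraries, and −0.056 to 0.66 and −0.19 to 0.46 without single ones.

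Replicate numbers are shared by the labels, which name no shared batch. Of 40 same-number pairs 17 correlated above 0.1 (median 0.067, against −0.023 for other numbers), and every pair of replicates 1 correlated above 0 (0.032 to 0.41). The samples were not treated as paired, since that asked for every pair above 0.1 or a batch in the labels. As a hint from the data, 13 of 20 libraries correlated best with their own number. The replicate block added Pmepa1 (shHIRA II) and dropped Id2 (shHIRA I). With 4 libraries a group and down to 53.9 estimated counts for a member in a library (Tgfbi), small differences were not detectable.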
